A study of Mus musculus with 2 samples.

Results

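The desmosomal cadherins and the plaque proteins that anchor them were followed as 10 genes, Dsg1a, Dsg1b, Dsg2, Dsg3, Dsg4, Dsc1, Dsc2, Dsc3, Jup and Dsp, each taken by its symbol from the 32285 genes of the count files. All 10 had counts in both libraries. Dorsal skin came from male C3H/HeN mice, aged 7 weeks at the first dose and 9 weeks at harvest and shaved on the back, with 15 animals pooled per group. The control group (Con) received vehicle, and the androgenetic alopecia model (TP) received testosterone propionate under the skin at 0.5 mg per day. Another group, given a neutralizing antibody beside testosterone propionate, is not analysed here. Each pool gave 1 droplet library of single cells, so no test over animals or libraries exists, no p-value is given, and every interval is a 95% interval that covers counting error only. A difference between Con and TP cannot be told apart from a difference between the libraries themselves.

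Desmosomes are junctions that hold neighbouring epithelial cells together against mechanical stress, and they are most numerous in epidermis, hair follicle and heart muscle. The desmogleins (Dsg) and desmocollins (Dsc) are cadherins that span the membrane and bind those of the next cell. Inside the cell their tails bind plakoglobin (Jup) and plakophilins, which bind desmoplakin (Dsp), and desmoplakin ties the junction to keratin filaments. Which cadherins a keratinocyte makes changes as it moves from the basal layer to the surface and between the layers of the hair follicle.

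After removal of low-quality barcodes and doublets, 39076 Con cells and 18542 TP cells were kept, with medians of 2058.5 and 4924 unique molecular identifiers (UMIs, 1 for each captured transcript). The limit on mitochondrial UMIs removed 3465 of 45709 barcodes in Con and 5871 of 25931 in TP. The libraries shared 303 cell barcodes, 184 of them among kept cells. Cells were clustered without the desmosome genes and named from marker genes into 16 classes, 9 of them keratinocytes. The granular-like class of the interfollicular epidermis (IFE) had all 7 of its markers detected and 4 of them, Hrnr, Flg2, Flg and Lor, among its leading genes. The level of its highest marker, Hrnr, was 242 UMIs per 1000000 in Con and 775 in TP, while Lce1a1 in Con and Lce1c in TP were near 0. Unnamed clusters held 19.9% of Con and 4.73% of TP cells. Keratinocyte transcripts were also counted in cells that should lack them. In lymphocyte-like and endothelial-like cells together, Dsp stood at 780 UMIs per 1000000 (CPM) in Con and 555 CPM in TP, which was 19.3% and 11.8% of its highest keratinocyte level. Endothelial junctions can themselves hold Jup and Dsp. Over all 7 non-epithelial classes the Dsp level was 508 CPM in Con and 287 CPM in TP. Low levels were therefore read against this background, whose part in the differences between libraries was examined only by subtraction.

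The cadherins of differentiated epidermis were highest toward the surface of the IFE. Dsg1a and Dsg1b are mouse copies of desmoglein 1, the cadherin of the upper epidermis and the antigen of pemphigus foliaceus, and Dsc1 is the desmocollin of the same layers. Dsg1a stood at 224 CPM in basal-like, 778 CPM in suprabasal-like and 1106 CPM in granular-like cells of Con, and at 221, 966 and 1377 CPM in the same classes of TP. The rise from layer to layer was outside the counting intervals in both libraries. Dsg1a stood at 138 CPM in Con and 118 CPM in TP in lymphocyte-like and endothelial-like cells, more than what was left of its basal-like level after subtraction (85.2 and 103 CPM). Dsg1b stood at 37.5, 151 and 157 CPM in Con and at 32.0, 218 and 209 CPM in TP, and its intervals in suprabasal-like and granular-like cells overlapped in both. Dsc1 was held back longer, with 36.6, 68.9 and 360 CPM in Con and 22.6, 135 and 666 CPM in TP. Its second highest class was the inner root sheath-like one, the sheath that moulds the growing hair, at 257 CPM in Con and 318 CPM in TP. The basal-like levels of Dsc1 lay below its level in lymphocyte-like and endothelial-like cells, which was 63.7 CPM in Con and 41.1 CPM in TP, and were read as background. The suprabasal-like level of Con was close to that background too.

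Dsg3, the cadherin of the lower epidermis and the antigen of pemphigus vulgaris, had the opposite order. It was highest in IFE basal-like cells, at 219 CPM in Con and 319 CPM in TP. Companion layer and medulla-like cells followed at 216 and 236 CPM and outer bulge-like cells, which hold the stem cells of the follicle, at 207.5 and 205 CPM. In Con these 3 classes had overlapping intervals, while in TP each lay apart from the next. Granular-like cells held 42.8 CPM in Con and 25.4 CPM in TP, against 28.2 and 29.5 CPM in lymphocyte-like and endothelial-like cells. Dsg2, the desmoglein of basal and simple epithelia and of heart, was highest in companion layer and medulla-like cells in both libraries, at 273 CPM in Con and 215 CPM in TP. IFE basal-like cells came second with 97.9 and 76.6 CPM. In granular-like cells Dsg2 stood at 20.8 CPM in Con and 7.69 CPM in TP, below its 30.6 and 14.1 CPM in lymphocyte-like and endothelial-like cells.

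Dsg4, the desmoglein of the hair shaft whose loss gives lanceolate hair in mice, was highest in hair-forming cells. Hair cortex and cuticle-like cells held 629 CPM in Con and 642 CPM in TP. The next highest keratinocyte class, inner root sheath-like cells, held 31.6 CPM in Con and 66.9 CPM in TP. In Con the inner root sheath-like level overlapped that of lymphocyte-like cells (30.8 CPM). Dsc2, a desmocollin found in most epithelia, was the scarcest member, with 702 UMIs in Con and 444 in TP over all kept cells. It was highest in companion layer and medulla-like cells (20.8 CPM in Con, 22.7 CPM in TP) and in cortex and cuticle-like cells (18.4 CPM in Con, 25.05 CPM in TP), whose intervals overlapped in each library. Every other named class held at most 7.57 CPM. Dsc3, the desmocollin of the lower layers, was the most evenly spread cadherin among keratinocytes. Its highest class stood 3.87 times above its lowest in Con, where IFE granular-like cells held 1182 CPM and companion layer and medulla-like cells 306 CPM. In TP the ratio was 5.19, between 1438 CPM in suprabasal-like and 277 CPM in hair matrix-like cells.

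**Figure D1:**
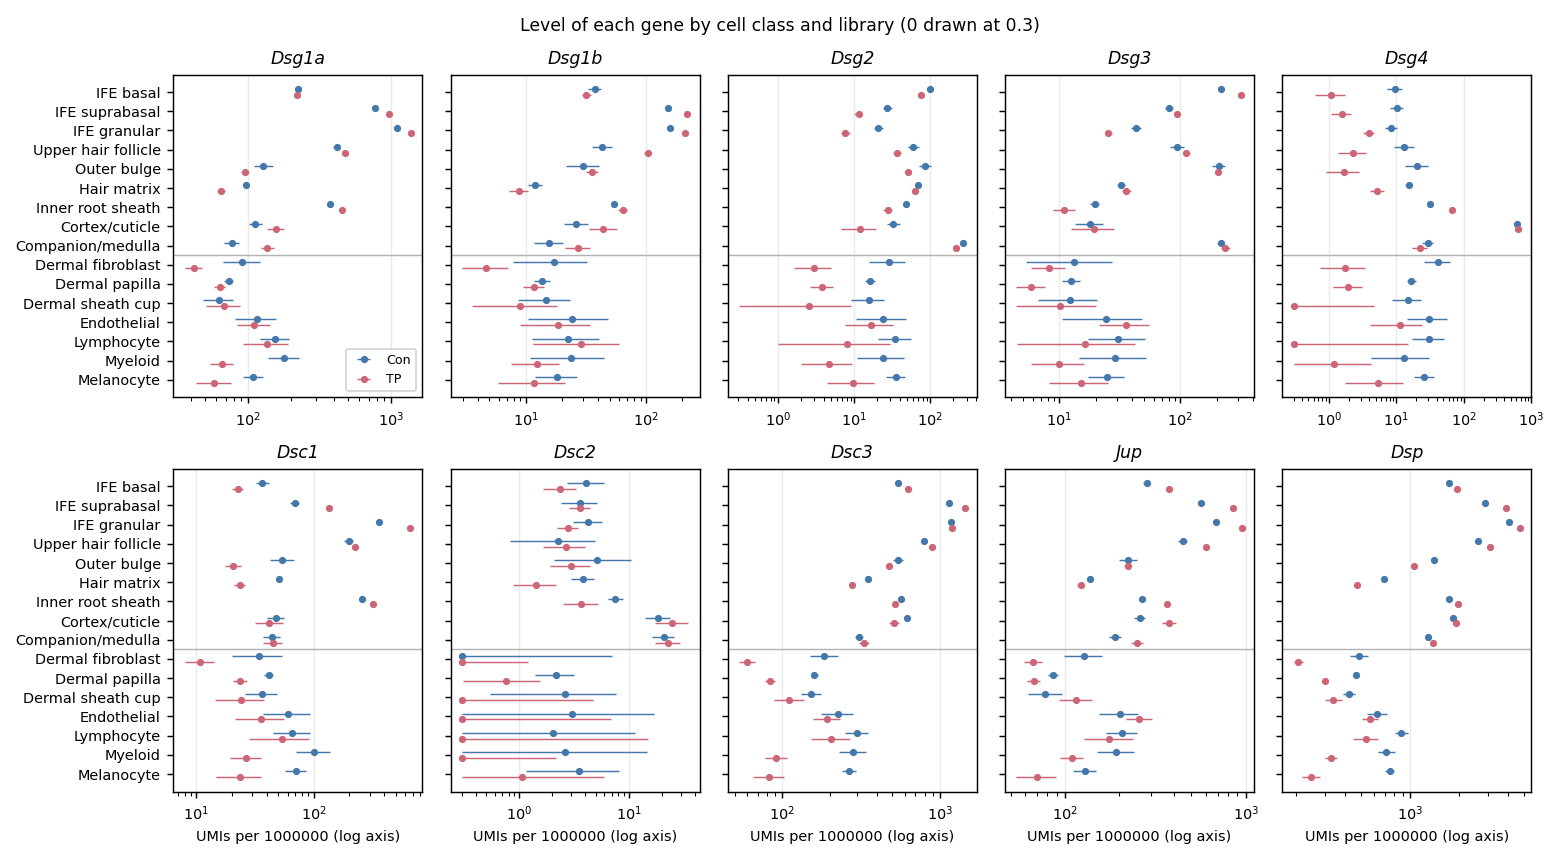
Each panel shows 1 gene, with the level in UMIs per 1000000 on a log axis for 16 cell classes (rows) in Con (blue) and TP (red), bars being exact Poisson 95% intervals. The grey line separates 9 keratinocyte classes from 7 others, and Dsg4 stands out in cortex and cuticle-like cells at 629 and 642 CPM.

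The plaque genes followed the differentiated epidermis. Jup, plakoglobin, which serves both desmosomes and adherens junctions, stood at 283, 564 and 684 CPM in basal-like, suprabasal-like and granular-like cells of Con and at 375, 857 and 954 CPM in TP. Dsp, desmoplakin, stood at 1722, 2886 and 4052 CPM in the same classes of Con and at 1949, 3865 and 4699 CPM in TP. Both genes were lowest among keratinocytes in hair matrix-like cells, the dividing cells at the base of the follicle, where Dsp held 692 CPM in Con and 472 CPM in TP. Those Dsp levels were below the 780 and 555 CPM of lymphocyte-like and endothelial-like cells.

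Jup and Dsp encode the plaque proteins that the desmosomal cadherins share, and both were higher in TP in all 3 IFE classes, as given further on. Their promoters from RefSeq (GRCm38.p6, 250 bases before to 50 bases after the start) are shown for that reason, 2 of the 10 members having an entry in the promoter table, chr11:100397741-100398040 on the minus strand for Jup and chr13:38151044-38151343 on the plus strand for Dsp. Capitals mark each match to a searched motif on either strand.
Jup: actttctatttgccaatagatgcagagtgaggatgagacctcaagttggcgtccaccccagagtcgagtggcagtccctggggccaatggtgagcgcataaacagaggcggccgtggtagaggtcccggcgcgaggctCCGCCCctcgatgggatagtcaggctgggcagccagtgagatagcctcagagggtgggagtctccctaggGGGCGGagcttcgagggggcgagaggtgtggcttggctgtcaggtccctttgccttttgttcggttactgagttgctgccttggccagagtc
Dsp: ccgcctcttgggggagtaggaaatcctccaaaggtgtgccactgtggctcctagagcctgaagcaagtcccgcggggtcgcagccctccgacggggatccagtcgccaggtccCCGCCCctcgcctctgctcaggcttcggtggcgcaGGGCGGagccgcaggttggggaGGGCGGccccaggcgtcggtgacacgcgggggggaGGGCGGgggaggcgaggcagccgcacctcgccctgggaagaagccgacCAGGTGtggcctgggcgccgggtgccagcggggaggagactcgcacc
The GC box (GGGCGG) matched 2 times in Jup and 4 times in Dsp, and 35.7% of the 32851 promoters of this length in the table hold it. The E-box (CAGGTG), held by 20.2% of promoters, matched once, in Dsp. Neither window held the AP-1 site (TGANTCA, 7.81% of promoters), the grainyhead site (AACCNGTT, 2.09%), the LEF/TCF site (CTTTGA, 16.0%), the half-site of the androgen response element (AGAACA, 19.0%) or the TATA box (TATAAA, 13.6%). The motifs do not overlap in these windows. Base composition was 73.0% G and C in Dsp and 60.7% in Jup, against a median of 52.7% over all promoters.

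Within the desmogleins, the make-up of each class was its own. A share of UMIs within a family is compared here between classes for 1 gene at a time, since capture differs between genes. No background was subtracted, which bears on Dsg1a and Dsc1 in basal-like cells and on Dsg3 in granular-like cells. Dsg1a made up 38.0% of desmoglein UMIs in basal-like cells of Con (95% interval 36.5 to 39.6%) and 82.8% in granular-like cells, and 34.0% and 84.8% in TP. Dsg3 made up 37.2% in basal-like and 3.20% in granular-like cells of Con, and 49.1% and 1.56% in TP. Dsg4 made up 76.8% of desmoglein UMIs in cortex and cuticle-like cells of Con and 73.5% in TP. Dsg2 made up 44.7% in companion layer and medulla-like cells of Con and 33.7% in TP. Among the desmocollins, Dsc3 held 93.0% of UMIs in basal-like and 76.4% in granular-like cells of Con, and 96.2% and 64.0% in TP. The third desmoglein 1 copy, Dsg1c, which is not among the 10 genes, held at most 0.18% of desmoglein UMIs in any keratinocyte class.

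**Figure D2:**
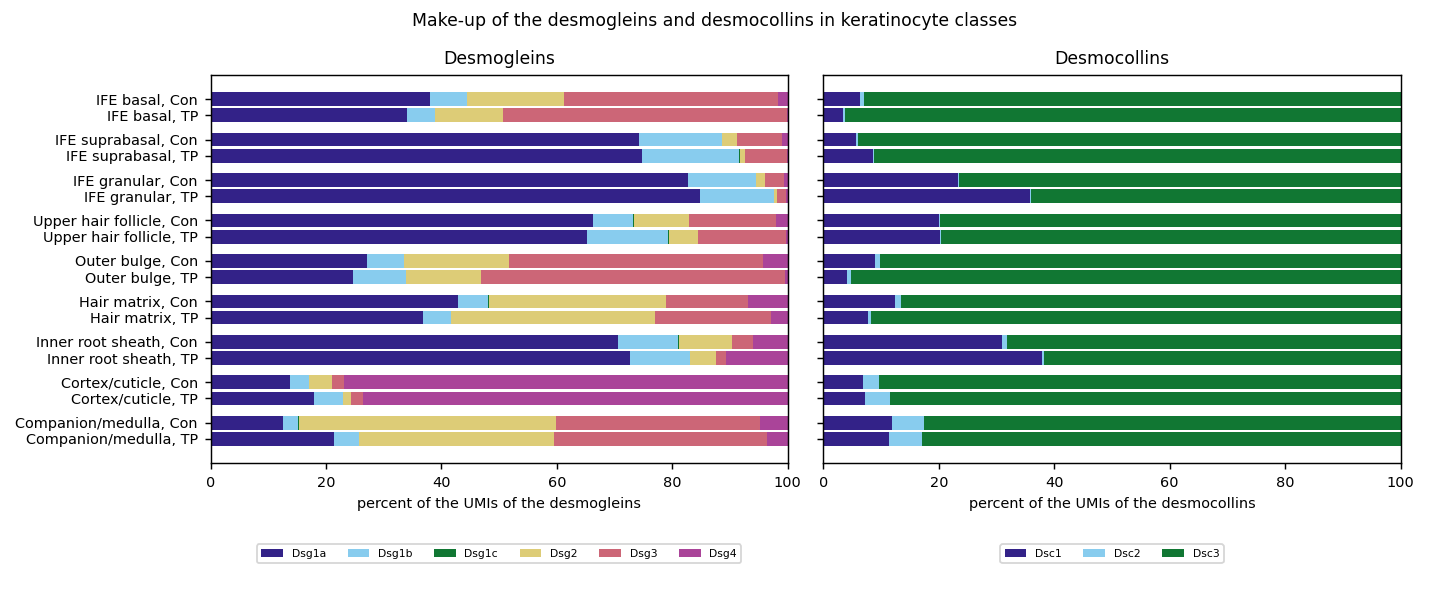
Stacked bars show the percent of desmoglein UMIs (left) and desmocollin UMIs (right) that each gene holds in 9 keratinocyte classes of Con and TP. Dsg1a widens from 38.0% in basal-like to 82.8% in granular-like cells of Con, and Dsg4 fills most of the cortex and cuticle-like bars.

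The order along epidermal differentiation was then followed without class borders. IFE cells of both libraries were ranked by the mean of Krt1, Krt10, Krtdap, Sbsn, Lor and Flg2 minus that of Krt5, Krt14, Col17a1 and Itga6, none of them a member, and cut into 10 bins that held 346 to 1092 cells of a library. Dsg3 went from 221 CPM in the least to 4.88 CPM in the most differentiated bin of Con and from 344 to 6.34 CPM in TP. Dsg2 went from 102 to 10.98 CPM in Con and from 78.1 to 2.69 CPM in TP. In bin 4 Dsg3 still stood at 200.2 CPM in Con and 288 CPM in TP, and Dsg2 at 84.6 and 58.9 CPM, and both were lower in bin 5.

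The other 6 well-counted members went up. Dsg1a went from 201 to 1339 CPM in Con and from 182 to 1376 CPM in TP. Dsg1b was highest in bin 9, at 203 CPM in Con and 247 CPM in TP, up from 27.4 and 20.3 CPM. Dsc1 reached 547 CPM in Con and 747 CPM in TP in the last bin, from 24.96 and 17.3 CPM in the first, which lie below its background. Dsc3 was highest in bin 9 in both libraries (1430 CPM in Con, 1478 CPM in TP), and in TP it was lower again in bin 10, at 1173 CPM. Jup went from 290 to 863 CPM in Con and from 368.5 to 1032 CPM in TP, and Dsp from 1885 to 5095 CPM and from 2156 to 4983 CPM. Dsc2 stayed between 3.05 and 5.84 CPM in Con and between 2.07 and 3.74 CPM in TP, with wide intervals. Dsg4 stayed at or below 11.8 CPM in every bin.

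**Figure D3:**
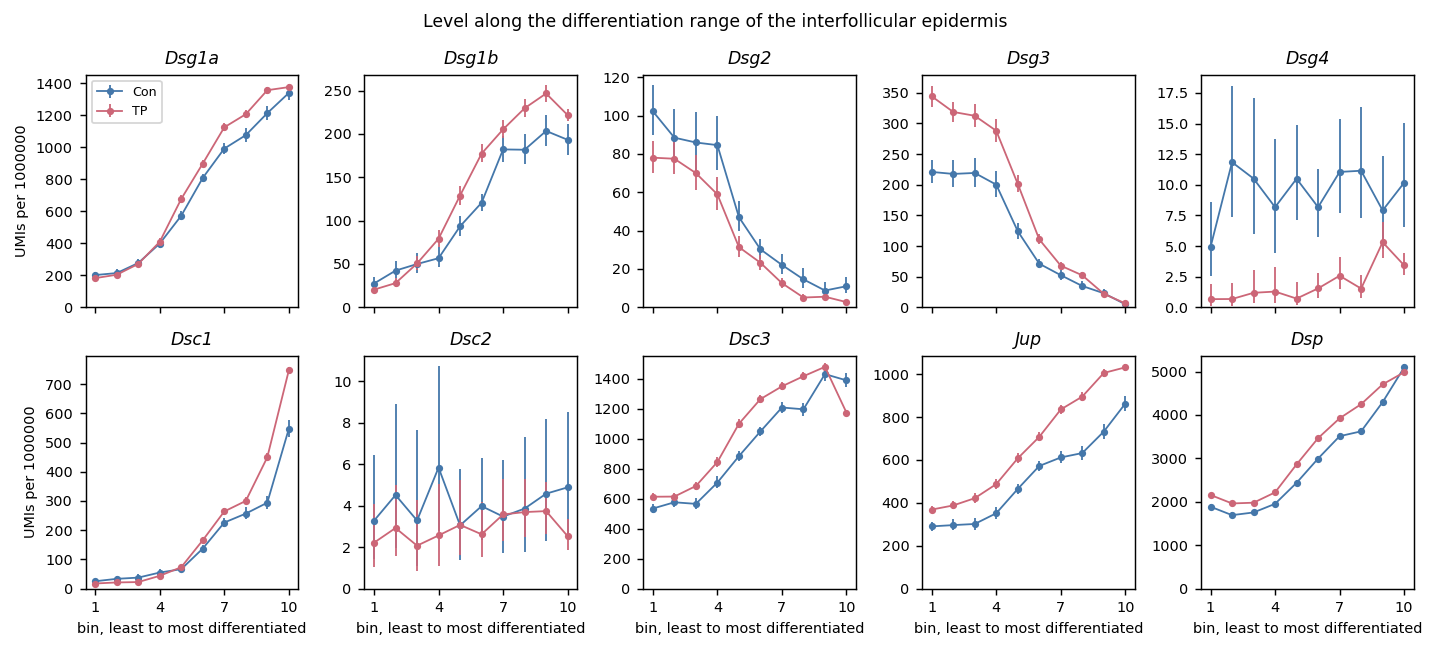
Level in UMIs per 1000000 of each gene (panels) in 10 bins of IFE cells from least to most differentiated, in Con (blue) and TP (red), with exact Poisson 95% intervals. Dsg2 and Dsg3 go down, Dsg1a, Dsg1b, Dsc1, Dsc3, Jup and Dsp go up, and the Jup points of TP lie above those of Con in all 10 bins.

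Over all kept cells, 7 of the 10 genes had a higher level in TP and 3 a lower one. Past 2-fold were Dsg1b, higher in TP, and Dsg4, lower in TP, that is 1 member in each direction, where 17.2% of the 16181 genes with at least 100 UMIs were past 2-fold (7.62% higher, 9.59% lower). A count of 2 in 10 is near that background. Dsg1b went from 52.7 CPM in Con to 107 CPM in TP, a ratio of 2.02 (1.96 to 2.09). Dsg4 went from 63.8 to 18.4 CPM, a ratio of 0.289 (0.276 to 0.303). Dsc2 was just inside the limit, at 6.57 CPM in Con and 3.31 CPM in TP, a ratio of 0.503 (0.446 to 0.567). Dsg2 had a ratio of 0.573, Jup of 1.86, Dsg1a of 1.79, Dsc1 of 1.66, Dsg3 of 1.64, Dsp of 1.503 and Dsc3 of 1.34. The median log2 ratio of the 10 genes was 0.65, beside -0.24 for all genes tested. The scaling bears on this. With a TMM factor (a scaling by the bulk of genes), the median of all genes was 0.03, Dsg1a and Jup also passed 2-fold, and 67.7% of all calls were higher in TP instead of 44.3%.

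These differences became smaller when the cell make-up was held fixed. Granular-like cells gave 9.43% of the UMIs in Con and 22.8% in TP, and inner root sheath-like cells 21.6% in Con and 6.28% in TP. With each cluster at its UMI share in Con, the ratio of Dsg1b was 1.31, of Dsg1a 1.19, of Dsg3 1.15, of Dsp 1.09 and of Dsc3 1.02. It was 1.31 for Jup and 1.28 for Dsc1, and below 1 it was 0.833 for Dsg4, 0.769 for Dsc2 and 0.712 for Dsg2. All 10 were closer to 1 than over all kept cells. Inner root sheath-like cells were 25.1% of Con and 6.71% of TP cells, with medians of 1902 and 4040 UMIs.

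For Dsg4, the values by cluster are given as a description. The 4 clusters above 250 CPM of Dsg4 in Con, chosen after these values were seen, were both cortex and cuticle-like clusters, an unnamed one with Selenbp1, Krt35 and Dsg4 among its leading genes, and an inner root sheath-like one led by Prr9 and S100a3. The last had all 8 inner root sheath markers detected but none among its 10 leading genes, 4 of which (S100a3, Acsm3, Slc27a6 and Vsig8) also led a cortex and cuticle-like cluster. Prr9, Crym and Fbp1, also among its leading genes, led another inner root sheath-like cluster too. Its marker score was 2.30 for the inner root sheath and 1.31 for cortex and cuticle. By that choice the 4 clusters held most Dsg4 UMIs of Con, 78.1%, and they held 82.3% in TP. Their level was 420 CPM in Con and 389 CPM in TP. Their share of cells was 11.1% in Con and 3.81% in TP. The ratios within the clusters were 0.831 (0.727 to 0.948) and 1.14 (1.03 to 1.26) in the pair of cortex and cuticle-like clusters, 0.955 (0.875 to 1.04) in the unnamed one and 0.903 (0.793 to 1.03) in the inner root sheath-like one. In all other cells Dsg4 stood at 15.9 CPM in Con and 3.40 CPM in TP.

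**Figure D4:**
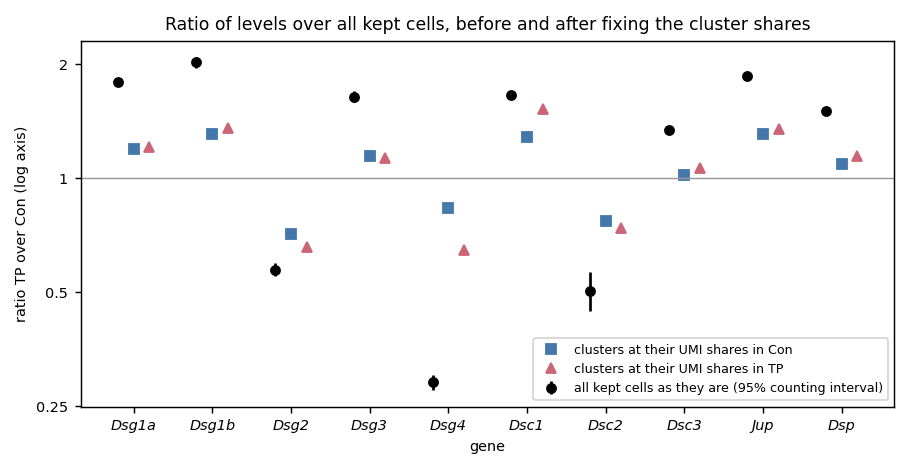
Ratio of TP over Con for each gene on a log axis, over all kept cells as they are (black, with 95% counting intervals) and with clusters held at their UMI shares in Con (blue squares) or in TP (red triangles). The Dsg4 ratio moves from 0.289 to 0.833 and 0.646, and that of Dsg1b from 2.02 to 1.31 and 1.35.

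Within cell classes, the plaque genes were higher in TP in most keratinocytes. Jup was higher in TP with an interval above 1 in 7 of 9 keratinocyte classes. Its ratio was 1.32 (1.26 to 1.39) in IFE basal-like, 1.52 (1.47 to 1.57) in suprabasal-like, 1.395 (1.36 to 1.43) in granular-like, 1.35 in upper hair follicle-like, 1.39 in inner root sheath-like, 1.46 in cortex and cuticle-like and 1.32 in companion layer and medulla-like cells. It was 1.00 in outer bulge-like and 0.883 in hair matrix-like cells. Jup stood at 205 CPM in Con and 233 CPM in TP in lymphocyte-like and endothelial-like cells. Its levels in hair matrix-like cells, in companion layer and medulla-like cells of Con (189.9 CPM) and in outer bulge-like cells of TP (223 CPM) were below that, so no difference in expression was read from these 3 classes. Over all 7 non-epithelial classes Jup stood at 99.3 CPM in Con and 80.2 CPM in TP. These 3 classes lay above that level, so the reading depends on the background chosen. In the bins of differentiation Jup was higher in TP in 10 of 10, by 1.20 to 1.42 times. None of these passed 2-fold before background was subtracted.

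Dsp was higher in TP in the same 7 classes, by 1.06 to 1.34 times, and in 9 of 10 bins of differentiation, with 0.978 (0.960 to 0.997) in the last bin. It was lower in outer bulge-like (0.745) and hair matrix-like cells (0.682). The hair matrix-like levels lay below those of lymphocyte-like and endothelial-like cells in both libraries, so no difference in expression was read from that class. In the 7 non-epithelial classes Dsp was below 1 throughout, from a ratio of 0.330 in melanocyte-like cells (746 CPM in Con, 247 CPM in TP) to 0.899 in endothelial-like cells, whose interval (0.751 to 1.08) spans 1. With the level of lymphocyte-like and endothelial-like cells subtracted, the Dsp ratio was 1.48 in basal-like, 1.57 in suprabasal-like and 1.27 in granular-like cells, and Jup came to 1.81, 1.73 and 1.51. After the same subtraction Jup was past 2-fold in cortex and cuticle-like (2.66) and inner root sheath-like cells (2.22), and Dsp lay between 1.27 and 1.64 in the 7 classes. Ratios after subtraction, here and elsewhere, carry no interval and are not corrected values. Lymphocyte-like cells had medians of 1507.5 UMIs in Con and 2018 in TP, granular-like cells of 8183 and 15241. In the most differentiated bin Dsg3 (4.88 CPM in Con, 6.34 CPM in TP) lay below the level subtracted (28.2 and 29.5 CPM), which can thus be too high.

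Among the differentiation cadherins, Dsc1 had the largest ratio in the suprabasal-like and granular-like classes, each taken as a whole. It went from 68.9 to 135 CPM in suprabasal-like cells, a ratio of 1.95 (1.79 to 2.14), and from 360 to 666 CPM in granular-like cells, a ratio of 1.85 (1.78 to 1.92), or 2.11 after subtraction of the level in lymphocyte-like and endothelial-like cells. The suprabasal-like ratio differed between its 2 clusters, 2.32 (2.08 to 2.60) in one and 1.11 (0.940 to 1.32) in the other, and came to 17.96 after subtraction of the level in lymphocyte-like and endothelial-like cells, which leaves little of the Con level. In the bins of differentiation, Dsc1 was below its background in both libraries in bins 1 to 3, and had ratios of 1.10 to 1.21 in bins 5 to 8, of 1.53 in bin 9 and of 1.37 in bin 10. From bin 5 on, the Dsg1b ratio was larger in bins 5, 6 and 8 (1.38, 1.47 and 1.26) and smaller in bins 7, 9 and 10. Dsc1 was lower in TP in outer bulge-like (0.380) and hair matrix-like cells (0.463), where its levels were at most 54.3 CPM and within its background. Dsg1a had ratios of 0.988 (0.930 to 1.05) in basal-like (1.12 with the TMM factor), 1.24 in suprabasal-like and 1.25 in granular-like cells, and Dsg1b of 0.853, 1.45 and 1.33. The Dsg1b ratio in basal-like cells turned to 1.27 at resolution 2, 1.01 at resolution 0.5 and 1.06 as a mean over cells, so no direction was read from it. Before subtraction, the single class in which Dsg1b passed 2-fold was the upper hair follicle-like one, the region around the sebaceous duct, where it went from 43.3 to 103 CPM, a ratio of 2.37 (1.95 to 2.91), or 4.04 after subtraction of its level in lymphocyte-like and endothelial-like cells (23.3 CPM in Con, 21.8 CPM in TP). The same subtraction put Dsg1b past 2-fold in outer bulge-like (2.05) and cortex and cuticle-like cells (7.17) too, from at most 6.79 CPM left in Con. In upper hair follicle-like cells, 1.7% of the 9045 genes tested were past 2-fold higher, and Dsg1a had a ratio of 1.14.

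The 3 Dsg1 genes are close relatives. None of the 911 windows of 90 bases (a length set here to stand for a read) in the last 1000 bases of the Dsg1a transcript occurred exactly in Dsg1b or Dsg1c, and the same held the other way round. Of windows of 31 bases, 16.3% of those of Dsg1b occurred in Dsg1a. These transcripts are those of GENCODE vM39 on a later genome build, and reads with mismatches were not considered, so some exchange between Dsg1a and Dsg1b counts was not tested.

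Of the basal cadherins, Dsg2 was lower in TP in each of the 9 keratinocyte classes as a whole, while Dsg3 had an interval above 1 in 3 of 8 keratinocyte classes with enough UMIs and below 1 in 2. Those 2 were IFE granular-like (0.593, 0.526 to 0.669) and inner root sheath-like cells (0.559, 0.442 to 0.702), at levels of at most 42.8 CPM. In TP both levels lay below the 29.5 CPM of lymphocyte-like and endothelial-like cells, so no difference in expression was read from these classes. Dsg3 went from 219 to 319 CPM in IFE basal-like cells, a ratio of 1.46 (1.38 to 1.55), and was higher in 2 of the 3 basal-like clusters by 1.61 and 1.60 times and in the other by 1.08 times. In outer bulge-like cells its ratio was 0.986 (0.869 to 1.12), and 1.13 with the TMM factor. Dsg2 was lower in TP with an interval below 1 in all 9 keratinocyte classes, from 0.360 in cortex and cuticle-like to 0.898 in hair matrix-like cells, the last of which turned to 1.01 with the TMM factor and to 1.24 after subtraction of the level in lymphocyte-like and endothelial-like cells, and was 1.02 and 1.03 in 2 of its 3 clusters. It was past 2-fold lower in IFE suprabasal-like (27.5 to 11.4 CPM, ratio 0.416), granular-like (20.8 to 7.69 CPM, ratio 0.369) and cortex and cuticle-like cells (32.7 to 11.8 CPM). There, 5.55%, 9.03% and 1.42% of genes were past 2-fold lower. Those 3 classes are the ones with the lowest Dsg2 levels, at or below the 30.6 and 14.1 CPM of lymphocyte-like and endothelial-like cells except in cortex and cuticle-like cells of Con, so no difference in expression was read from them. With the level of all non-epithelial classes subtracted the granular-like ratio was 1.97. The Dsg2 level of all 7 non-epithelial classes was itself lower in TP, 19.2 CPM in Con and 4.37 CPM in TP. In the 2 classes with the highest Dsg2 level, companion layer and medulla-like and IFE basal-like, its ratio was 0.788 (0.708 to 0.876) and 0.782 (0.710 to 0.862), and 0.829 and 0.928 after subtraction of the level in lymphocyte-like and endothelial-like cells. Outer bulge-like, upper hair follicle-like and inner root sheath-like levels also lay above that of lymphocyte-like and endothelial-like cells. Their Dsg2 ratios were 0.591, 0.608 and 0.567, and 0.662, 0.759 and 0.747 after the same subtraction.

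Dsg4 had a ratio of 1.02 (0.942 to 1.11) in cortex and cuticle-like cells as a whole. Its ratios in the clusters of that class, given above, lay on opposite sides of 1, each with an interval that excludes 1. Its ratio was 2.12 (1.89 to 2.37) in inner root sheath-like cells as a whole, but below 1 in each of the 4 clusters of that class, from 0.187 to 0.903. With those clusters at their UMI shares in Con the ratio was 0.740, and with clusters at resolution 0.5 it was 0.314, so no higher Dsg4 level was read from the class. In IFE suprabasal-like, granular-like and hair matrix-like cells it was past 2-fold lower, at levels of at most 15.4 CPM in Con. These levels did not exceed the 30.6 CPM of lymphocyte-like and endothelial-like cells in Con, so no difference in expression was read from them. Dsc2 was past 2-fold lower in inner root sheath-like cells, 7.57 CPM in Con and 3.68 CPM in TP, a ratio of 0.486 (0.320 to 0.715), which became 0.718 and was no longer past 2-fold after subtraction of the level in lymphocyte-like and endothelial-like cells. Dsc3 stayed between 0.788 in hair matrix-like and 1.26 in suprabasal-like cells. With the level of lymphocyte-like and endothelial-like cells subtracted, Dsc3 came to 1.59 in basal-like and 3.56 in companion layer and medulla-like cells, the latter from 37.4 CPM left in Con.

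In all, 11 pairs of a member and a keratinocyte class with at least 100 UMIs were past 2-fold, 2 of them higher in TP and 9 lower (4 and 5 with the TMM factor). All 10 members had enough UMIs in suprabasal-like, granular-like, inner root sheath-like and companion layer and medulla-like cells. Hair matrix-like cells had 9 such members and each other keratinocyte class 8. Of the 2 higher pairs, Dsg1b in upper hair follicle-like cells stands against 1.7% of genes higher there, and Dsg4 in inner root sheath-like cells, whose direction turned as given above, against 2.99%. Of the 9 lower pairs, Dsg2 and Dsg4 gave those in suprabasal-like (5.55% of genes lower) and granular-like cells (9.03%). Others were Dsc1 in outer bulge-like cells (3.1%) and Dsc1 and Dsg4 in hair matrix-like cells (2.75%). The rest were Dsc2 in inner root sheath-like cells (4.2%) and Dsg2 in cortex and cuticle-like cells (1.42%). No member was past 2-fold in IFE basal-like cells, where 1.1% of genes were higher and 1.88% lower, or in companion layer and medulla-like cells, where 1.75% were higher and 1.16% lower. None was past 2-fold higher in suprabasal-like (1.48% of genes), granular-like (1.74%), outer bulge-like (2.61%), hair matrix-like (1.09%) or cortex and cuticle-like cells (1.81%), or lower in upper hair follicle-like cells (2.41%). Jup, Dsp, Dsg1a, Dsg3 and Dsc3 were past 2-fold in no keratinocyte class on this scale. With the TMM factor, Dsc1 was past 2-fold higher in suprabasal-like and granular-like cells too (log2 ratios of 1.23 and 1.24).

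**Figure D5:**
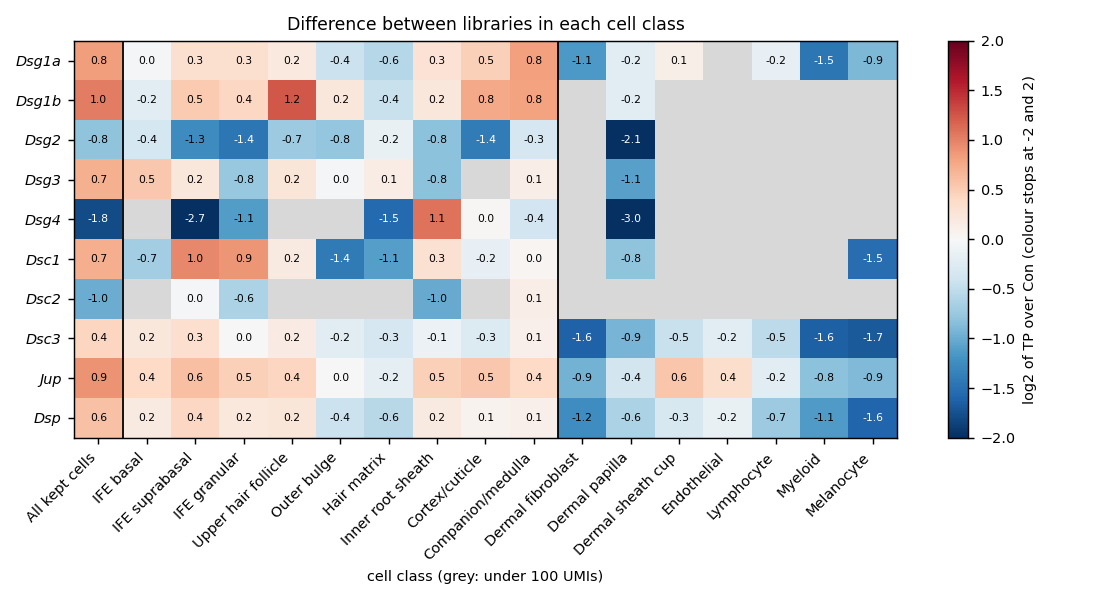
Colour and number give the log2 ratio of TP over Con for each gene (rows) over all kept cells, 9 keratinocyte classes and 7 other classes (columns, separated by black lines), with grey for under 100 UMIs. Jup is above 0 in 7 keratinocyte columns, Dsg2 is below 0 in all 9 (hair matrix-like turns to a ratio of 1.01 with the TMM factor), and most non-epithelial columns are below 0.

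The share of cells with a UMI is given for a plaque gene, a basal and a hair cadherin. Each cell was thinned to 1000 UMIs, which left out 5360 Con and 857 TP cells. A UMI of Dsp was then found in 95.8% of granular-like cells in Con and 97.1% in TP (100% and 99.9% without thinning), in 77.1% and 79.3% of basal-like cells and in 46.5% and 34.1% of lymphocyte-like cells, whose median depths were 1507.5 and 2018 UMIs against 8183 and 15241 UMIs in granular-like cells. Dsg3 was found in 18.7% of basal-like cells in Con (17.2 to 20.3%) and 26.7% in TP, against 2.33% and 1.14% of lymphocyte-like cells. Dsg4 was found in 46.5% of cortex and cuticle-like cells in Con and 54.5% in TP, and in 0.528% and 0.231% of granular-like cells, which are deeper (medians of 2579 and 4473.5 UMIs in cortex and cuticle-like cells). Without thinning the Dsg4 share was 75.5% of cortex and cuticle-like cells in Con and 88.6% in TP, and the Dsg3 share 36.3% and 62.5% of basal-like cells.

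Other genes of the junction were taken from fixed lists, which were chosen with earlier results of these data known. Of 9 desmosome partners (Dsg1c, plakophilins, Ppl, Evpl, Perp and Cdsn), all with at least 100 UMIs over all kept cells, 1 was past 2-fold higher in TP and 1 lower, near the 7.62% and 9.59% of all genes, and the median log2 ratio was 0.48 beside -0.24 for all genes. Cdsn, corneodesmosin, which joins the desmosome as cells cornify, had the largest ratio, from 12.1 to 62.2 CPM. Pkp2, a plakophilin of simple epithelia and heart, had the smallest, from 8.64 to 3.75 CPM. Perp, a membrane protein of the desmosome and the best counted partner, went from 1130 to 2257 CPM, a ratio just under 2-fold. Within granular-like cells, Cdsn went from 87.2 to 230 CPM and Perp from 2672 to 4179 CPM.

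Genes that loosen these junctions at the skin surface, or restrain that, were mostly higher in TP. The list of corneodesmosome proteases and inhibitors had 9 genes, of which Ctsv had no row of that symbol and Klk14 too few UMIs. Of the 7 others, 6 were past 2-fold higher in TP and none lower, where 7.62% of all genes were higher, with a median log2 ratio of 2.09. Since the list was chosen with earlier results known, this count is a description only. Klk6, a kallikrein protease, had the largest ratio, from 40 UMIs in Con to 989 in TP. Spink5, the inhibitor of kallikreins that is lost in Netherton syndrome, was the best counted, from 194 to 701 CPM. Ctsl, a cathepsin, had the smallest, from 54.1 to 91.0 CPM. Within keratinocyte classes the list's median log2 ratio was lower, from 0.59 in upper hair follicle-like to 1.32 in inner root sheath-like cells. Past 2-fold higher were 5 of 7 in granular-like cells, where 1.74% of genes were, and 3 of 6 in suprabasal-like cells (1.48%). Basal-like cells had 2 of 6 (1.1%), upper hair follicle-like cells 1 of 7 (1.7%) and hair matrix-like cells 0 of 6 (1.09%). Inner root sheath-like cells had 4 of 6 (2.99%), and companion layer and medulla-like cells 4 of 5 (1.75%). It was 2 of 6 in outer bulge-like (2.61%) and 1 of 2 in cortex and cuticle-like cells (1.81%). Cst6 of this list is also a marker of the upper hair follicle-like class. In non-epithelial classes, past 2-fold higher were 2 of 4 in dermal fibroblast-like, 1 of 6 in dermal papilla-like and 1 of 2 in endothelial-like cells. It was 1 of 3 in myeloid-like, 0 of 2 in dermal sheath cup-like, 0 of 1 in lymphocyte-like and 0 of 3 in melanocyte-like cells. No background was subtracted for this list, so no difference in expression was read from its counts within classes.

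Of 8 adherens junction genes none was past 2-fold over all kept cells, beside 17.2% of all genes, and their median log2 ratio was -0.12. Within classes, 1 of 8 was past 2-fold lower in IFE basal-like (1.88% of genes), granular-like (9.03%), outer bulge-like (3.1%) and hair matrix-like cells (2.75%). None was past 2-fold in the other keratinocyte classes or higher in any, and no background was subtracted. Over all kept cells Cdh1, E-cadherin, went from 231 to 259 CPM, Nectin1 from 237 to 170 CPM and Afdn, afadin, the best counted, from 396 to 358 CPM. Of 10 transcription factors of epidermis and hair, Klf4, a factor of the epidermal barrier, was past 2-fold higher over all kept cells (171 to 484 CPM). Lef1, Msx2 and Foxn1, factors of the hair follicle, were past 2-fold lower there, with Lef1 from 707 to 288 CPM. That is 1 higher and 3 lower of 10, beside 7.62% and 9.59% of all genes. Trp63, the factor of stratified epithelia, went from 533 to 687 CPM. Within classes the transcription factors gave other counts, with the share of all genes in brackets. Past 2-fold lower were 5 of 10 in basal-like (1.88%), 3 of 10 in suprabasal-like (5.55%) and 2 of 10 in granular-like cells (9.03%). So were 2 of 9 in upper hair follicle-like (2.41%), 1 of 8 in outer bulge-like (3.1%) and 1 of 10 in hair matrix-like cells (2.75%). None was higher in these classes. Higher were 2 of 10 in inner root sheath-like (2.99%), 1 of 10 in cortex and cuticle-like (1.81%) and 1 of 9 in companion layer and medulla-like cells (1.75%), with none lower. Lef1, Msx2 and Hoxc13 are markers too. In non-epithelial classes, past 2-fold lower were 3 of 4 in dermal fibroblast-like, 5 of 10 in dermal papilla-like and 3 of 4 in dermal sheath cup-like cells. So were 1 of 2 in lymphocyte-like, 2 of 3 in myeloid-like and 4 of 6 in melanocyte-like cells, and 0 of 3 in endothelial-like cells. No background was subtracted for this list, so no difference in expression was read from its counts within classes.

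The genes most like each member were found over 16 classes in both libraries, 32 points that share their library depth and background, by Pearson's r of log2(CPM + 1). For Jup the closest was Serpinb5 (r = 0.969), followed by Rab25 and Fam83g, and for Dsp Fam83g (r = 0.965), followed by Sytl1 and Serpinb5. Serpinb5 was also among the closest for Dsg1a, Dsg1b and Dsc3, whose closest were Pof1b (r = 0.956), Serpinb5 (r = 0.948) and Scel (r = 0.955). Dsc1 was closest to Cyp4f39 (r = 0.899). Dsg3 was closest to Itga3, an integrin of the basement membrane (r = 0.912), then Rbbp8 and Jag2. Dsg2 was closest to Lama5, a laminin chain (r = 0.896), then Car12 and Krtcap3. Dsg4 was closest to Dclk3 (r = 0.952), and the hair keratin Krt35, itself a marker of the cortex and cuticle-like class, was among its 3 closest (r = 0.926). Dsc2 was closest to Fbxl19 (r = 0.881). Between members, r was 0.960 for Dsg1a and Dsg1b and -0.07 for Dsg3 and Dsg4.

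By position, 8 of the 10 genes lie in 1 run on chromosome 18 that spans 644 kb in the RefSeq annotation of GRCm38.p6, in the order Dsc3, Dsc2, Dsc1, Dsg1c, Dsg1a, Dsg1b, Dsg4, Dsg3 and Dsg2, with Dsg1c as the ninth gene. Dsg4 at chr18:20436175-20471821 lies between Dsg1b at chr18:20376729-20412183 and Dsg3 at chr18:20510274-20541310. Some neighbours had like patterns over the classes (r of 0.960 for Dsg1a and Dsg1b, 0.766 for Dsg3 and Dsg2) and others did not, since the highest class was IFE granular-like or suprabasal-like for Dsg1b, hair cortex and cuticle-like for Dsg4 and IFE basal-like for Dsg3.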

How the data were processed

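The deposited counts are whole-number UMIs per gene and cell barcode, without normalization, which the authors made with Cell Ranger 8.0.1 on mm10 from droplet libraries of transcript ends. Cells with 200 to 8000 genes detected and no more than 10% mitochondrial UMIs, the study's limits, were kept, and the 7.5% of barcodes most like artificial doublets were removed by a rewritten form of the study's procedure. Total UMIs of kept cells were 106770474 in Con and 134265332 in TP.

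Seurat 5.3.0 (R 4.3.3) joined the libraries by reciprocal PCA over 2000 variable genes, desmosome genes left out, with 30 components and resolution 1. A cluster took the class whose markers scored highest, with at least 3 detected, a score of 1.4 or more and no other class with more markers among its 10 leading genes. The score, the leading-gene rule and the split of 1 immune cluster at resolution 2 were chosen after the clusters were seen. The members, gene lists and markers were chosen with earlier results of these data known.

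UMIs were summed per class and library and given per 1000000 (CPM). Intervals at 95% are exact Poisson (levels), Clopper-Pearson (shares) and exact conditional binomial (ratios). The count past 2-fold used log2 ratios with 1 UMI added per library, for genes whose UMIs in Con and TP summed to 100 or more. No test was run, since each group is 1 library. All members are named, and for each list the genes with the largest and smallest log2 ratio and the highest level. The 3 genes most like a member were sought among genes with at least 200 UMIs in each library outside the lists. No level by class is given for Cst6, Lef1, Msx2 and Hoxc13, which are markers too. edgeR 4.0.16 gave TMM factors only. The ratio and its interval were run on simulated counts that held counting error only, which cannot show how far libraries or background shift a ratio. Sums and intervals were computed in Python 3.11.15 with scipy 1.17.1.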

Additional observations from a re-analysis of the deposited data

Results flagged for a closer look

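Dsg4 was past 2-fold in opposite directions in different keratinocyte classes. Its ratio of TP over Con was 2.12 in inner root sheath-like cells, and 0.151 in IFE suprabasal-like, 0.462 in IFE granular-like and 0.338 in hair matrix-like cells. In the inner root sheath-like class it was below 1 in each of the 4 clusters, from 0.187 to 0.903. The difference between classes was not tested, with 1 library per group. In the classes with a ratio below 1 the Dsg4 level did not exceed that of lymphocyte-like and endothelial-like cells of the same library in Con (30.6 CPM). Of the 4 inner root sheath-like clusters, the one led by Prr9 and S100a3 held 438 of 731 Dsg4 UMIs of the class in Con and 523 of 564 in TP, and its own ratio was 0.903 (0.793 to 1.03).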

How the results depend on the processing

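Over all kept cells 2 members were past 2-fold, 4 with the TMM factor and 1 on a scale of log2(counts per 10000 + 0.1), on which 2 pairs of a member and a keratinocyte class were past 2-fold instead of 11. Of all genes, 2785 were past 2-fold over all kept cells, 7213 with no filter on low counts and 450 on that scale, and of gene and class pairs 4765, 7345 with at least 50 UMIs, 40771 with no filter and 1269 on that scale. A filter at 50 UMIs gave 3346 genes and 14 member and class pairs, no filter gave 15 such pairs and the TMM factor 9. Over all kept cells no member changed sides of 1 under any alternative run. Of 90 ratios in keratinocyte classes, 14 lay on the other side of 1 with a mean over cells of ln(counts per 10000 + 1), 11 with desmosome genes among the features, 4 with the TMM factor, 4 with doublets kept and 0 with cells of at least 1000 UMIs. Of 80, 9 did so at resolution 0.5 and 8 at resolution 2. With background subtracted it was 8 of 61 (lymphocyte-like and endothelial-like) or 14 of 78 (all non-epithelial classes), and the Dsg4 ratio in inner root sheath-like cells was 58.5 with the former. Past 2-fold, 1 reversed, Dsg4 in inner root sheath-like cells with 0.314 at resolution 0.5. Of alternatives added after the data were seen, weighting the clusters of a class by their shares in Con turned that Dsg4 ratio to 0.740, and subtracting the level of all non-epithelial classes turned Dsg2 in granular-like cells to 1.97. The cause was not tested. No paired analysis was possible because each group is 1 library. Depth limits the levels of Dsc2 and of Dsg4 outside hair-forming cells, and the source of the members' UMIs in non-epithelial classes was not tested.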
